A study of Homo sapiens with 8 samples.

Results

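The genes examined here are those named for proteins of the mitochondrial ribosome. They were taken by name: every protein-coding gene of the deposited table whose symbol is MRPL or MRPS, a number and at most a letter from A to C. This gave 78 genes of 58735, 51 of the large subunit and 27 of the small subunit. MRPS30 and MRPS18A carry small-subunit names but sit in the large subunit, and are counted there. MRPS36 was counted with the small subunit by its name, and whether its protein is part of the ribosome was not tested. The name rule itself uses no expression value, but it was set with earlier results of these data known.

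The mitochondrial ribosome translates the few proteins encoded by mitochondrial DNA, which are membrane subunits of the respiratory chain and of ATP synthase. Its ribosomal RNAs come from mitochondrial DNA, while all of its proteins are encoded in the nucleus, made in the cytosol and imported. Many of these proteins have a counterpart in the bacterial ribosome and others are found in mitochondria alone. Hepatocytes are rich in mitochondria and depend on oxidative phosphorylation.

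RNA was sequenced from HepaRG cells, a human hepatic progenitor line, and from M14A, a transfected derivative. M14A printed (2 libraries) holds M14A cells that were detached, mixed into a bioink named GP, bioprinted and collected 4 h after printing by freezing in liquid nitrogen and grinding. M14A flask (3 libraries) holds the same cells grown in flasks, then detached and pelleted. HepaRG flask (3 libraries) holds the wild-type parent line grown and collected in the same way. The genotype label of both M14A groups names FoxM1 and HNF4A as transfected, and no label says whether M14A is 1 clone. Printing and the way of collection differ together and cannot be told apart. Nothing in the labels says that libraries of a group came from separate cultures, so the p-values speak for the spread among these libraries, which could be technical.

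Each library held 15632154 to 19148262 reads, recovered from the deposited values. HNF4A, the nuclear receptor of hepatocyte identity named in the genotype, stood at 13.6 to 17.1 FPKM in M14A printed, 37.9 to 43.1 FPKM in M14A flask and 5.67 to 6.50 FPKM in HepaRG flask. FOXM1 stood at 10.1 FPKM in both M14A printed libraries, 8.92 to 13.0 FPKM in M14A flask and 12.9 to 14.9 FPKM in HepaRG flask, and M14A flask minus HepaRG flask was -0.34 on the log2 scale (limma adjusted p = 0.11). Of 10 hepatocyte markers 8 were detected at 1 FPKM or more in at least 2 libraries. All 10 had a sum of 846 to 870 FPKM in M14A printed, 600 to 762 in M14A flask and 32.6 to 35.7 in HepaRG flask. SERPINA1 alone made up 438 to 480 FPKM of it in M14A printed, and single markers differed in direction: ALB, APOA1 and FGB were higher in M14A printed than in M14A flask and HNF4A lower, while APOB averaged 26.1 FPKM in M14A printed and 53.7 FPKM in M14A flask without passing the test. Within M14A flask, library 1 differed from the other 2, with Pearson correlations across tested genes of 0.957 and 0.948 against 0.988 between the other two. Counts of calls are given with and without it. FPKM totals were 514152 and 499995 in M14A printed, 272290 to 350931 in M14A flask and 254141 to 266419 in HepaRG flask, so the choice between FPKM values and shares of the total matters below. In bulk RNA, fewer cells with high levels and less RNA per cell cannot be told apart.

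All 78 genes gave reads in every library, over a wide range of levels. Averaged over the 8 libraries, 12 genes stood at 50 FPKM or more, 55 between 5 and 50 FPKM, and 11 under 5 FPKM. The highest were MRPS34 at 109 FPKM, MRPL41 at 98.0 FPKM and MRPS26 at 86.4 FPKM, all proteins with no bacterial counterpart. The lowest were MRPL38 at 0.590 FPKM, MRPS24 at 1.06 FPKM and MRPL46 at 1.09 FPKM. MRPL38, a large-subunit protein, had 23 and 20 reads in M14A printed, 37, 33 and 37 in M14A flask, and 59, 52 and 64 in HepaRG flask. It was the only member under the filter of 1 FPKM in at least 2 libraries, so 77 genes were tested. The low values of MRPL38 and MRPS24 stand on exons that share 41.1% and 23.2% of their bases with other annotated genes, and whether reads in shared bases were dropped in counting was not tested. In all, 14 members share more than 20% of their exon bases with another gene, and 34 members have named pseudogenes, 75 in number, whose summed level was 3.23 to 6.43 FPKM per library. The genes lie on 21 chromosomes. They are short, with a median exon length of 2539 bases against 4159 over all genes tested, and similar in GC content, at a median of 50.4% against 49.5%.

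Their summed level was 2998 and 2679 FPKM in M14A printed, 2188, 1642 and 1579 FPKM in M14A flask, and 1631, 1571 and 1679 FPKM in HepaRG flask. Both printed libraries lay above all 6 flask libraries. As a share of recovered reads the set took 0.527 and 0.494% in M14A printed, 0.462, 0.418 and 0.418% in M14A flask, and 0.435, 0.419 and 0.439% in HepaRG flask, again without overlap. As a share of the FPKM total left after removing mitochondrially encoded genes, it took 0.877 and 0.875% in M14A printed, 0.873, 0.806 and 0.802% in M14A flask, and 0.830, 0.811 and 0.834% in HepaRG flask. On that scale M14A flask library 1 came close to the printed libraries. As a share of the whole FPKM total the printed libraries were not the highest, and they overlapped M14A flask, at 0.583 and 0.536% in M14A printed, 0.624, 0.590 and 0.580% in M14A flask, and 0.633, 0.618 and 0.630% in HepaRG flask. The 2 subunits did not move equally: the large subunit's summed level was 2.09 and 2.14 times that of the small subunit in M14A printed, 1.92, 1.94 and 1.92 times in M14A flask, and 1.87, 1.84 and 1.89 times in HepaRG flask. The groups did not overlap in this ratio, which no scaling of a library can change.

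**Figure D1:**
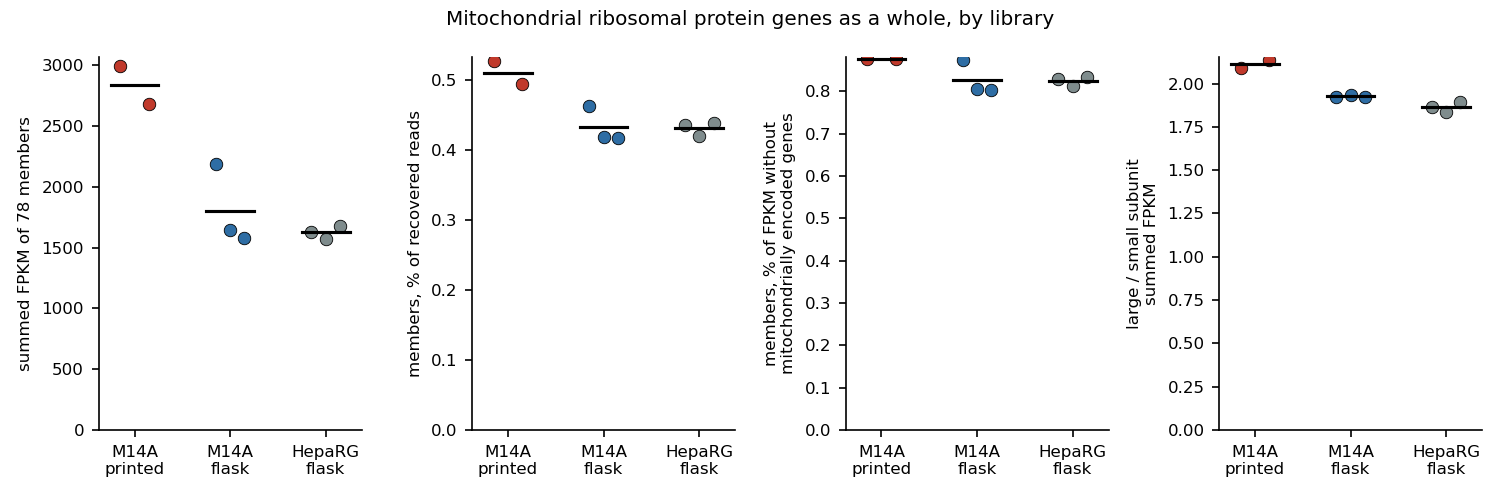
The 4 panels show, for each library (points) and group mean (horizontal lines), the summed FPKM of the 78 genes, their percentage of recovered reads, their percentage of FPKM outside mitochondrially encoded genes, and the ratio of large to small subunit sums. M14A printed lies above both flask groups in summed FPKM, in the share of reads and in the subunit ratio, and M14A flask library 1 reaches 0.873% of FPKM outside mitochondrially encoded genes.

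The comparison of M14A printed with M14A flask asks what differs in M14A cells 4 h after printing. In printed cells 41 of 77 tested genes were higher at an adjusted p below 0.05 (53.25%), where 17.7% of all 14349 genes tested were, although with equal FPKM totals the count was 8. In the other direction the test called 0 members, where it called 15.5% of all genes. None had a negative change at an unadjusted p below 0.05 in limma. Voom on recovered reads, with a scaling near that of the deposited values, also called 0. With equal FPKM totals 19 members were lower, beside 46.1% of all genes. The median change of the members was 0.57 on the log2(FPKM + 1) scale, against 0.01 over all genes tested, and -0.16 with equal FPKM totals; on the deposited scale 70 members lay above 0 and 7 below. Of the 41, 10 rose at least 2-fold, beside 4.97% of all genes, and 0 fell as far, beside 4.53%. Both subunits took part: 27 of 50 large-subunit and 14 of 27 small-subunit genes were higher. By class, these were 16 of 30 large-subunit proteins that have a bacterial counterpart, 11 of 20 that have none, and 8 of 17 and 6 of 10 of the small subunit. The printed libraries lay above all 3 M14A flask libraries for 52 of the 77, beside 26.9% of all genes, and above all 6 flask libraries for 51, beside 22.6%.

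**Figure D2:**
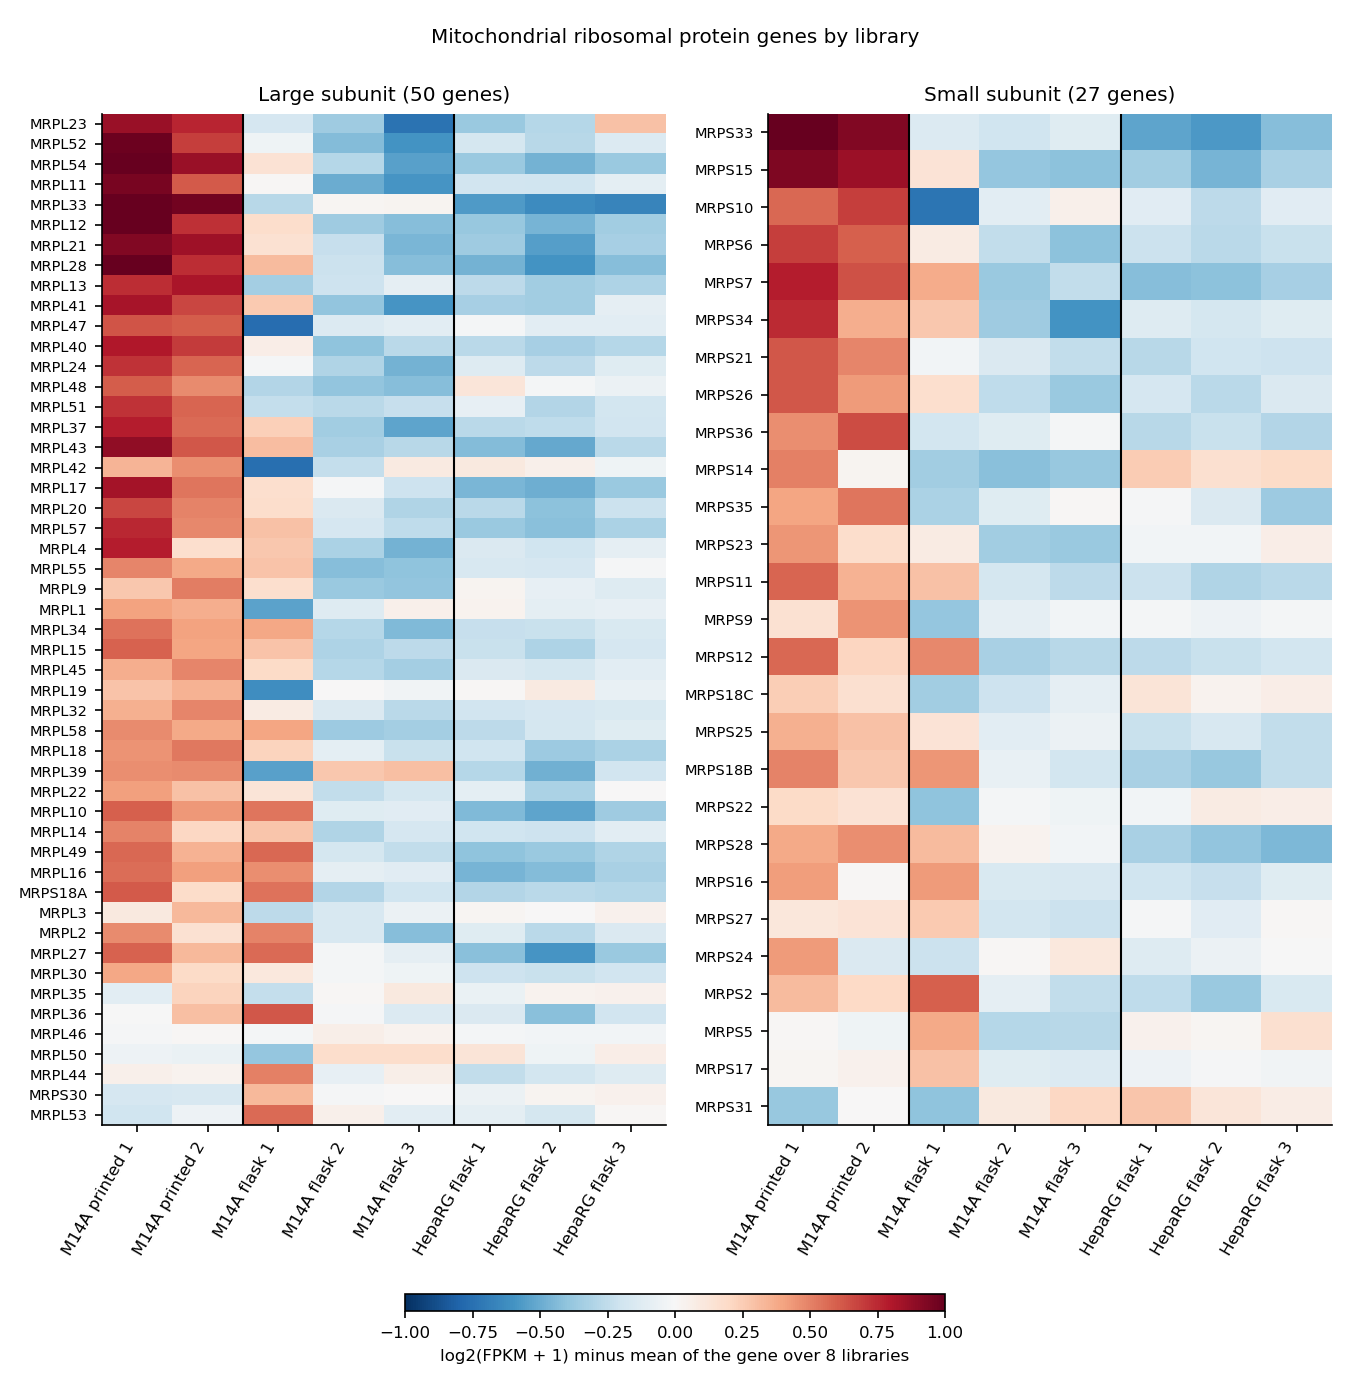
Each row is a tested gene, ordered by its change in printed cells, and each column a library; color is log2(FPKM + 1) minus the gene's mean over the 8 libraries, and values beyond 1 on either side take the end color. On the deposited scale the 2 printed columns are red for most rows of both subunits, while with equal FPKM totals 16 of the 41 called genes change sign, and the column of M14A flask library 1 departs from libraries 2 and 3 of its group in both directions.

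Among large-subunit proteins with a bacterial counterpart, the largest rise was in MRPL23 (ENSG00000214026, chromosome 11, 1947278 to 1984522 on GRCh38), which lines the exit of the peptide tunnel. MRPL23 had 7.58 and 6.99 FPKM in M14A printed, 3.20, 2.69 and 1.83 FPKM in M14A flask, and 2.66, 2.88 and 4.80 FPKM in HepaRG flask. Both printed libraries were above every flask library, and the log2 fold change against M14A flask was 1.23 (SE 0.23, limma with Benjamini-Hochberg adjusted p = 0.0051). MRPL11, which forms the base of the factor-binding stalk together with ribosomal RNA, had 39.8 and 31.5 FPKM in M14A printed, 20.3, 13.98 and 13.0 FPKM in M14A flask, and 17.6, 17.4 and 18.8 FPKM in HepaRG flask. Its groups did not overlap either, with a log2 fold change of 1.14 (SE 0.20, limma adjusted p = 0.0038). MRPL12, the stalk protein that recruits translation factors, had 77.99 and 61.3 FPKM in M14A printed, 41.5, 28.4 and 27.0 FPKM in M14A flask, and 27.8, 26.3 and 28.5 FPKM in HepaRG flask. The printed values again lay above the rest, at a log2 fold change of 1.10 (SE 0.20, limma adjusted p = 0.0048), although 68.2% of the exon bases of MRPL12 also belong to another annotated gene, AC139530.2. MRPL33, a small protein of the large subunit, had 87.5 and 78.5 FPKM in M14A printed, 32.7, 40.3 and 40.6 FPKM in M14A flask, and 26.5, 25.4 and 24.8 FPKM in HepaRG flask. It was the one gene of these 4 in which M14A flask library 1 was the lowest of its group, and it rose by a log2 fold change of 1.12 in printed cells (SE 0.15, limma adjusted p = 0.0013).

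Among large-subunit proteins without a bacterial counterpart, MRPL52 and MRPL54 led. MRPL52 (ENSG00000172590, chromosome 14, 22829879 to 22835037) had 39.5 and 32.3 FPKM in M14A printed, 18.9, 14.2 and 12.5 FPKM in M14A flask, and 17.2, 15.9 and 17.7 FPKM in HepaRG flask. The flask groups overlapped each other, while the printed libraries stood above both, at a log2 fold change of 1.20 against M14A flask (SE 0.19, limma adjusted p = 0.0023). MRPL54 (ENSG00000183617, chromosome 19, 3762664 to 3768575) had 61.2 and 53.9 FPKM in M14A printed, 32.5, 23.8 and 19.8 FPKM in M14A flask, and 22.3, 20.8 and 22.4 FPKM in HepaRG flask. The same order held, with M14A flask library 1 above the other flask libraries and below the printed ones, and the log2 fold change was 1.18 (SE 0.20, limma adjusted p = 0.0033). MRPL41, the most abundant large-subunit gene, had 164 and 147 FPKM in M14A printed, 111, 69.9 and 61.0 FPKM in M14A flask, and 72.8, 72.4 and 86.4 FPKM in HepaRG flask. It rose by 0.98 (SE 0.24, limma adjusted p = 0.015), a call lost without either printed library (adjusted p up to 0.0917), and the change was 0.23 with equal FPKM totals (limma adjusted p = 0.225).

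In the small subunit the largest rises were in MRPS33 and MRPS15. MRPS33 (ENSG00000090263, chromosome 7, 141002610 to 141015228), which has no bacterial counterpart, had 16.9 and 15.2 FPKM in M14A printed, 6.73, 6.40 and 6.84 FPKM in M14A flask, and 4.91, 4.72 and 5.33 FPKM in HepaRG flask. The 3 groups were fully separated, and MRPS33 had the lowest adjusted p of the set, 6.8e-04 in limma, at a log2 fold change of 1.15 (SE 0.12). MRPS15 (ENSG00000116898, chromosome 1, 36455718 to 36464437), whose bacterial counterpart binds the small ribosomal RNA early in assembly, had 47.2 and 44.7 FPKM in M14A printed, 26.7, 18.3 and 18.0 FPKM in M14A flask, and 18.8, 17.3 and 19.2 FPKM in HepaRG flask. It rose by 1.12 (SE 0.18, limma adjusted p = 0.0029). The 2 most abundant small-subunit genes changed less. MRPS34 had 177 and 135 FPKM in M14A printed, 127, 81.9 and 68.9 FPKM in M14A flask, and 95.6, 92.9 and 96.1 FPKM in HepaRG flask, a log2 fold change of 0.78 (SE 0.25, limma adjusted p = 0.040). Its call was lost in 7 of 8 fits that left out 1 library, all but that without M14A flask library 1, and the change was 0.02 with equal FPKM totals. MRPS26 had 129 and 113 FPKM in M14A printed, 94.5, 70.2 and 64.6 FPKM in M14A flask, and 74.6, 69.5 and 75.6 FPKM in HepaRG flask, a log2 fold change of 0.67 (SE 0.18, limma adjusted p = 0.021) that was -0.08 with equal FPKM totals and lost its call in 4 of those 8 fits.

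**Figure D3:**
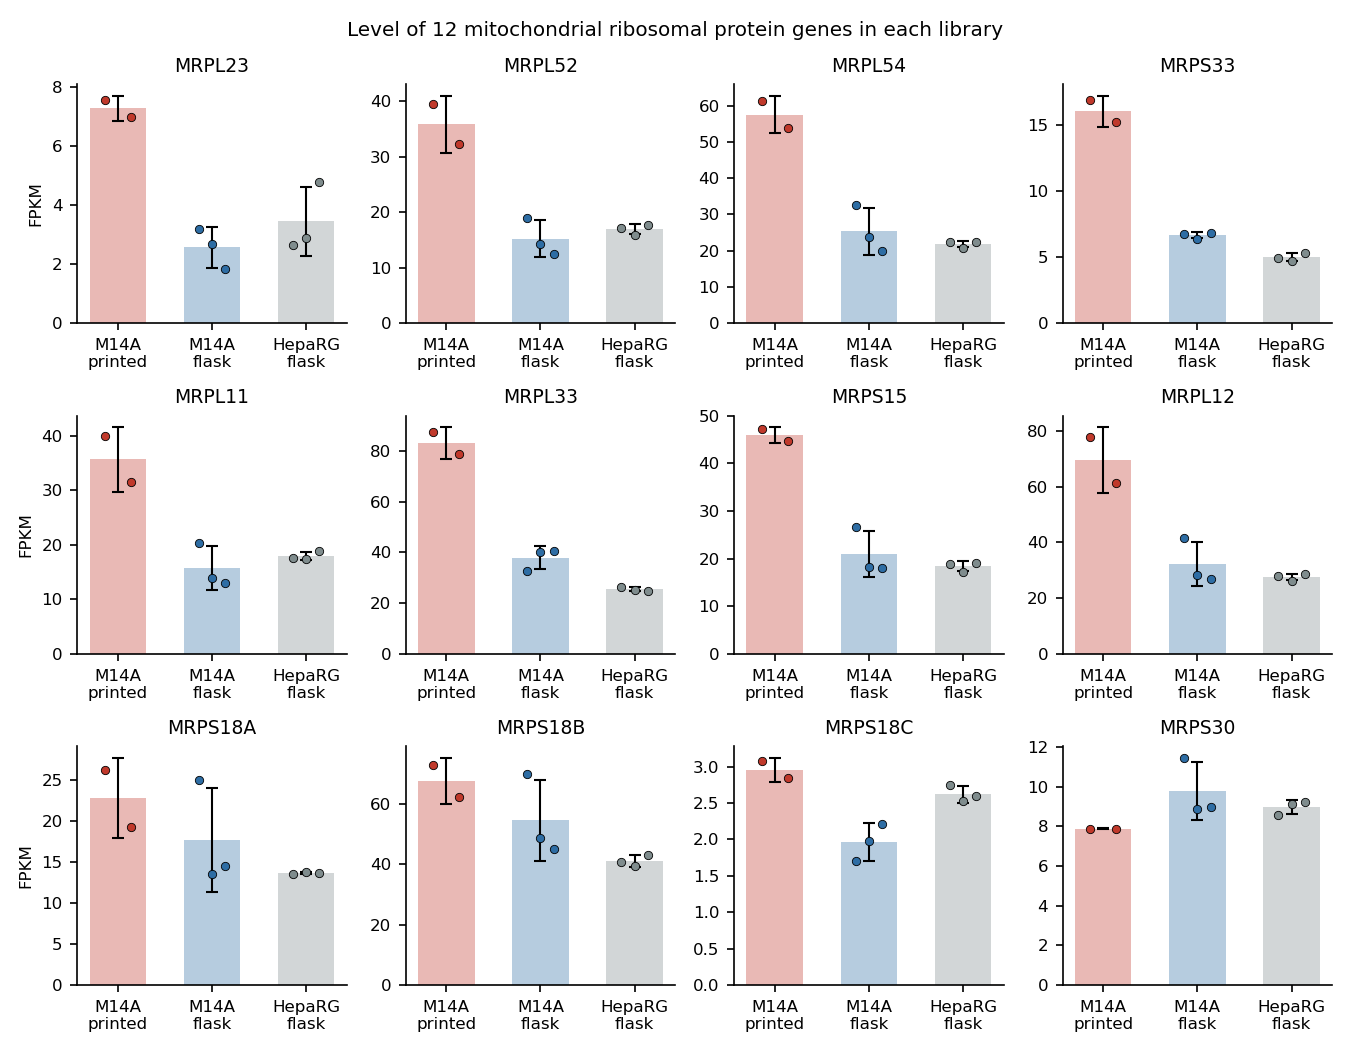
Points are FPKM of single libraries, bars are group means and whiskers are SD (n = 2 for M14A printed, n = 3 for each flask group), for the 8 largest rises, the 3 MRPS18 paralogs and MRPS30. The printed libraries stand clear of the flask libraries in the first 8 panels, overlap M14A flask in MRPS18A and MRPS18B, and lie below it in MRPS30.

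The 3 MRPS18 paralogs take different places in the ribosome, and whether MRPS18A and MRPS18B passed the test depended on 1 library. MRPS18A, the paralog in the large subunit, had 26.3 and 19.4 FPKM in M14A printed, 25.003, 13.6 and 14.6 FPKM in M14A flask, and 13.6, 13.9 and 13.7 FPKM in HepaRG flask. MRPS18B, of the small subunit, had 73.0 and 62.2 FPKM in M14A printed, 70.0, 48.8 and 45.2 FPKM in M14A flask, and 40.8, 39.3 and 43.1 FPKM in HepaRG flask. Both overlapped M14A flask through its library 1, with log2 fold changes of 0.38 (95% interval -0.19 to 0.96) for MRPS18A and 0.32 (-0.12 to 0.77) for MRPS18B, which were -0.34 and -0.43 with equal FPKM totals. Without M14A flask library 1 both were called higher, MRPS18A at 0.65 and MRPS18B at 0.51. MRPS18C, also of the small subunit and the least abundant of the 3, had 3.07 and 2.84 FPKM in M14A printed, 1.70, 1.98 and 2.21 FPKM in M14A flask, and 2.75, 2.52 and 2.59 FPKM in HepaRG flask. MRPS18C was higher in M14A printed than in M14A flask, by 0.42 (SE 0.12, limma adjusted p = 0.031), but stood at -0.12 with equal FPKM totals, and the call was lost in 6 of 8 fits that left out 1 library (adjusted p up to 0.148). Of its exon bases 40.2% are shared with ABRAXAS1, as are 47.0% of those of MRPS18A with RSPH9.

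The remaining 36 tested genes did not pass, and their changes reached from -0.30 to 0.65. The 7 with a negative change, named here after their values were seen, were MRPL53, MRPS30, MRPS31, MRPL44, MRPL50, MRPL46 and MRPL36. MRPL53, a large-subunit protein without a bacterial counterpart, had 1.89 and 2.20 FPKM in M14A printed, 3.91, 2.44 and 2.08 FPKM in M14A flask, and 2.09, 1.94 and 2.35 FPKM in HepaRG flask. The highest of these values was that of M14A flask library 1, and the printed values overlapped both flask groups. MRPS30 had 7.88 and 7.90 FPKM in M14A printed, 11.5, 8.88 and 8.99 FPKM in M14A flask, and 8.56, 9.15 and 9.24 FPKM in HepaRG flask. It was the only member whose printed libraries lay below all 6 flask libraries, beside 19.3% of all genes, and the only one below all M14A flask libraries, beside 24.4%, with a log2 fold change of -0.27 (95% interval -0.59 to 0.05). MRPL46 hardly varied at all, at 1.07 and 1.10 FPKM in M14A printed, 1.06, 1.18 and 1.14 FPKM in M14A flask, and 1.06, 1.04 and 1.05 FPKM in HepaRG flask.

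**Figure D4:**
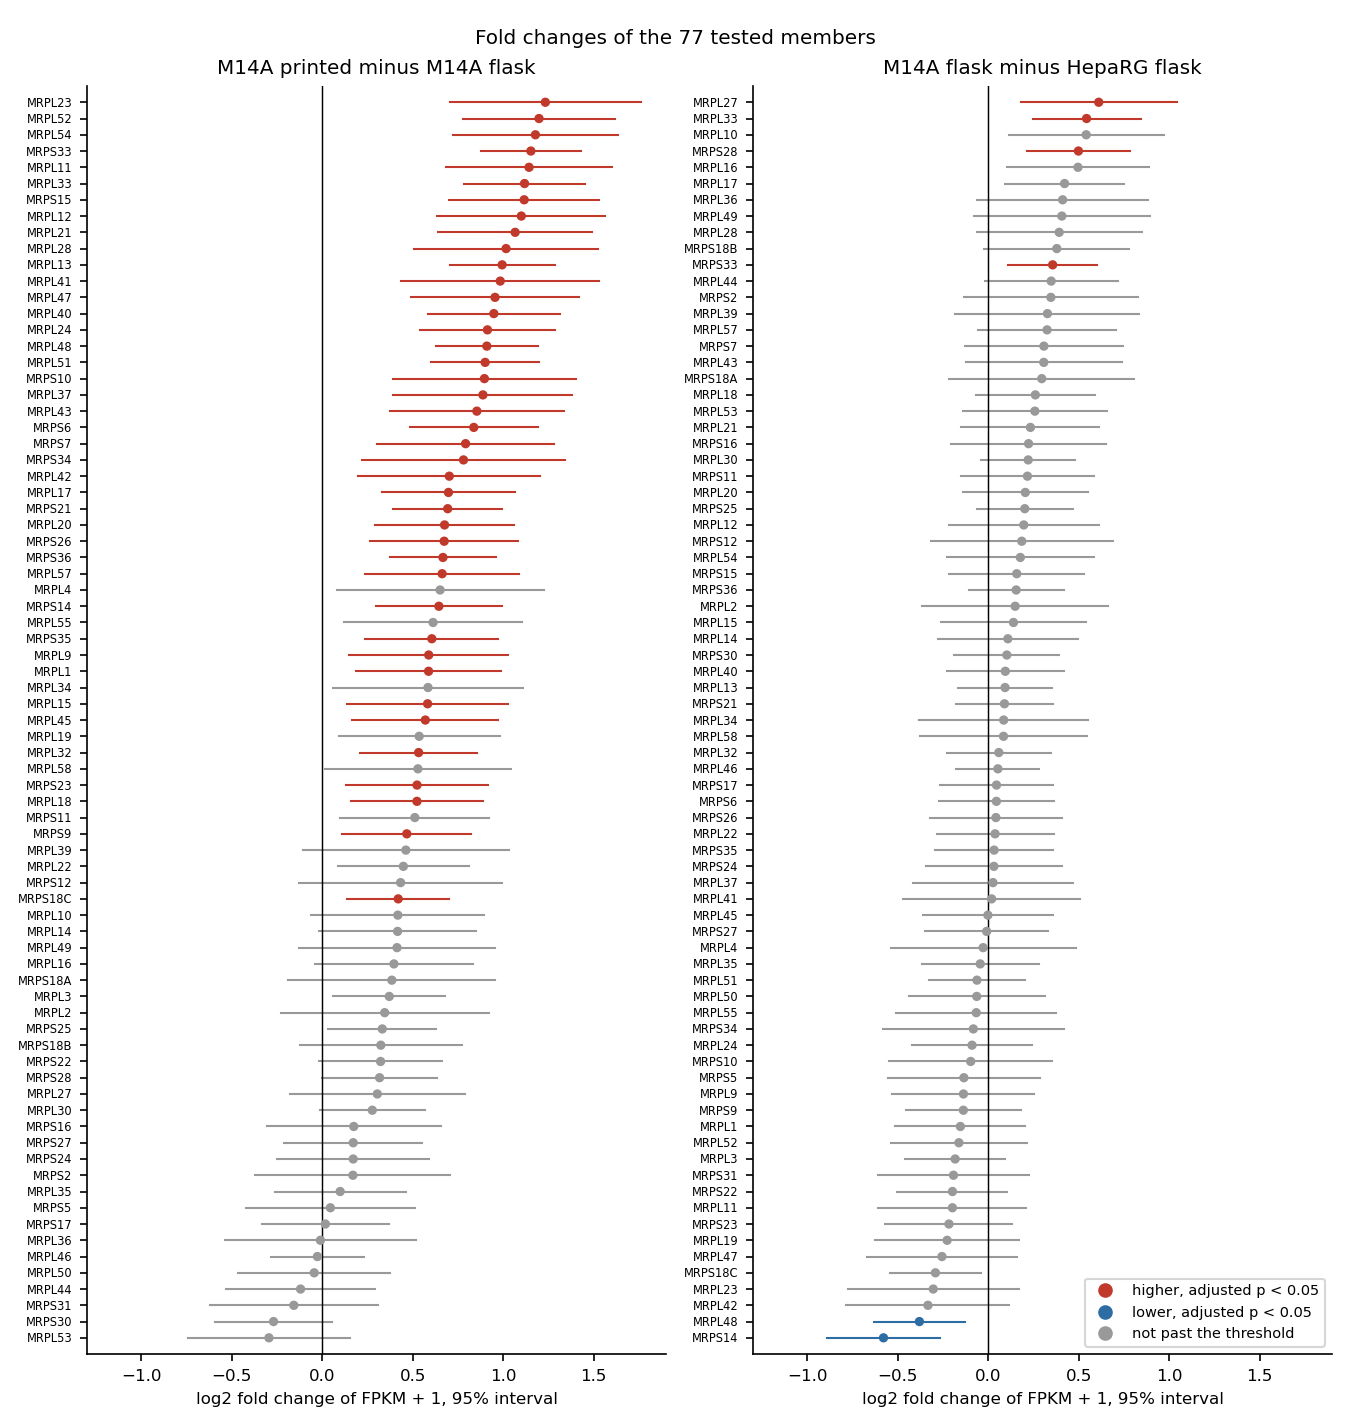
Points are log2 fold changes of FPKM + 1 for the 77 tested genes with 95% intervals from limma, for M14A printed minus M14A flask (left) and M14A flask minus HepaRG flask (right); color gives the call at an adjusted p below 0.05. On the left 41 genes are higher and 0 lower on the deposited scale (8 and 19 with equal FPKM totals), and on the right 4 are higher and 2 lower.

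How many genes rose depends on how libraries are put on 1 scale. The deposited values follow a median-ratio scaling. With every library brought to the same FPKM total, the median over all genes was -0.51 and that of the members -0.16, still 0.35 above it; 8 members were then higher and 19 lower, where 3.44% of all genes were higher and 46.1% lower, and 16 of the 41 took a negative sign. The 8 were MRPL11, MRPL12, MRPL21, MRPL23, MRPL52, MRPL54, MRPS15 and MRPS33, and they were called higher under each of 4 scalings. These were the deposited one, the nearly equal median-ratio one, and equal totals with and without mitochondrially encoded genes. The 4 are thus not independent. Mitochondrially encoded genes took 13.3 and 16.4% of recovered reads in M14A printed, 8.21 to 9.72% in M14A flask and 6.91 to 7.25% in HepaRG flask. With them left out of the total, 14 members were higher and 8 lower, beside 5.76 and 37.4% of all genes, at a median of 0.01 against -0.39 over all genes.

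M14A flask library 1 moves the count in the other direction. It was the highest of its 3 libraries for 56 members and the lowest for 19, where the shares over all genes were 52.1 and 39.3%. Its median offset over the members was 0.40 and 0.47 on the log2 scale against libraries 2 and 3, and across the 77 genes the offset increased with GC content (Pearson r = 0.69, a description over genes of the same libraries). Without it 65 members were higher and 1, MRPL50, lower, beside 28.4 and 27.1% of all genes, and the median was 0.66. Fits without printed library 1 or without printed library 2 keep 1 printed library. Their member medians were 0.53 and 0.60, against 0.0064 and 0 over all genes. With M14A flask library 2 left out, 24 members were called higher. The members called whichever library was left out were MRPL11, MRPL12, MRPL13, MRPL21, MRPL23, MRPL24, MRPL33, MRPL40, MRPL48, MRPL51, MRPL52, MRPL54, MRPS6, MRPS15, MRPS21, MRPS33 and MRPS36. Calls among the members and over all genes became fewer without either printed library or without M14A flask library 2. In the last of these fits 13.1% of all genes were higher, against 17.7% with all libraries. Short genes as a class were higher in printed cells, with 29.7% called among the 4370 tested genes of at most 2539 bases and 12.5% among the 9979 longer ones. Among the members, 23 of 40 genes of at most that length and 18 of 37 longer ones were called, at medians of 0.59 and 0.52 against 0.23 and -0.06 over all genes of those lengths. With each library's trend with length removed, 31 members were higher and 1, MRPL53, lower, beside 15.9 and 14.6% of all genes, at a median of 0.39.

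**Figure D5:**
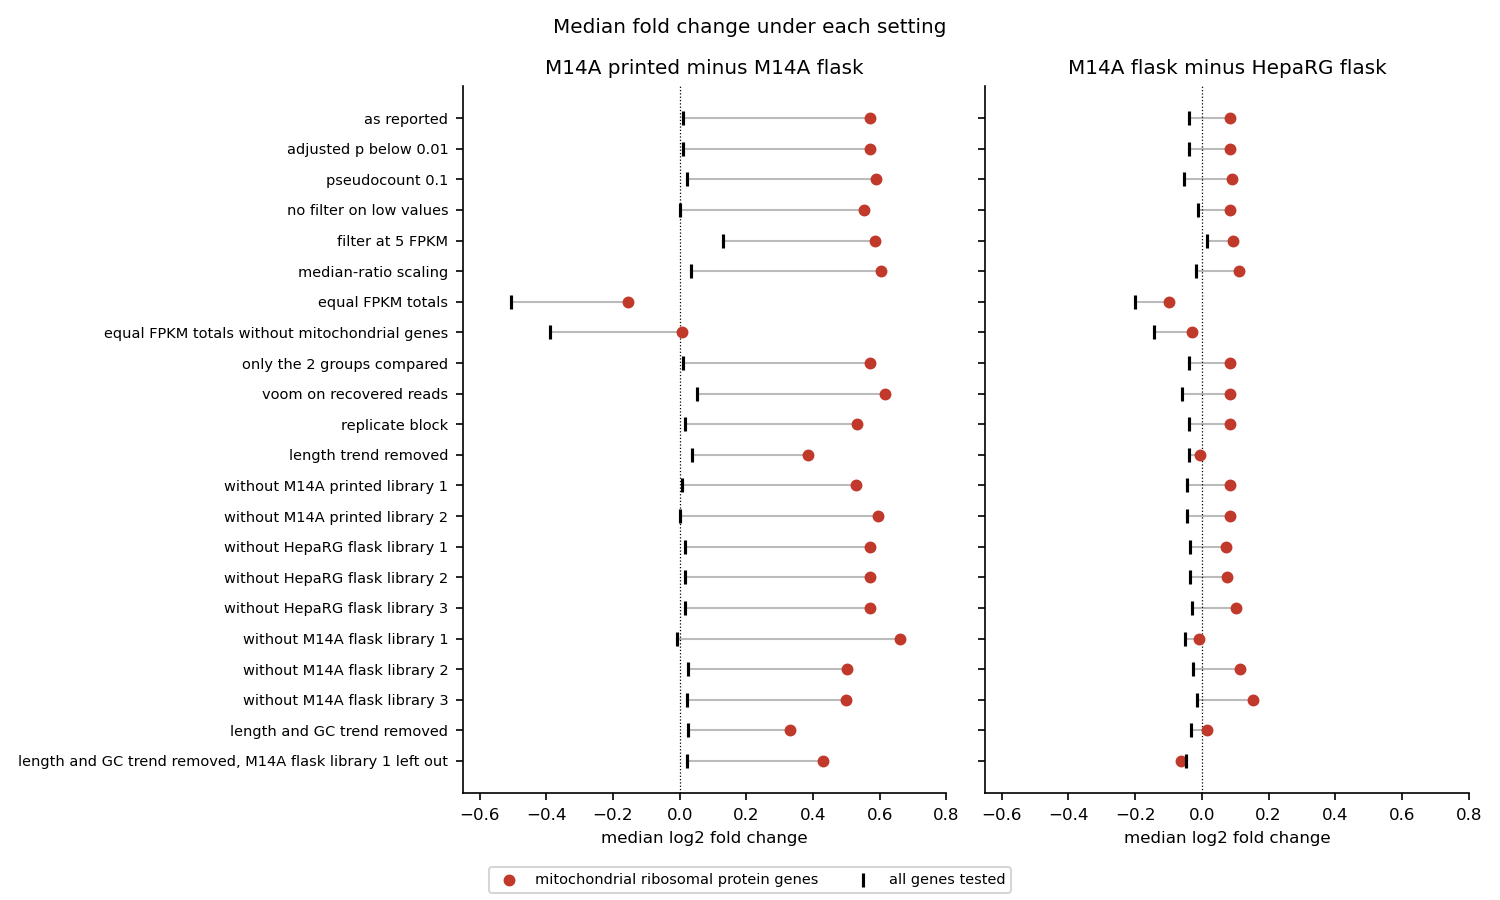
Red points are the median log2 fold change of the mitochondrial ribosomal protein genes and black ticks that of all genes tested, under each way of processing, for M14A printed minus M14A flask (left) and M14A flask minus HepaRG flask (right). On the left the members lie to the right of all genes in every row, including the 2 equal-total rows, where they stand at -0.16 and 0.01.

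Promoters of genes with the largest rises and the most negative changes are shown because factors that bind such sequences are known to serve many nuclear genes of mitochondrial proteins. RefSeq (GRCh38.p14) gave a window from 250 bases before to 50 after the start for 69 of the 78 genes. Each window was searched on both strands for GCGC, any base and TGCGC in a row, bound by NRF1, for CCGGAAGT, bound by ETS factors such as GABPA, and for AAGATGGC, bound by YY1. No matches of different motifs overlapped. Below, capitals mark these motifs in either orientation, in 160 bases before and 30 after the start, read 5′ to 3′ along the gene. The first 3 are the largest rises with a window (chr14:22829727-22829916, plus strand; chr19:3762522-3762711, plus strand; chr7:141014923-141015112, minus strand), and the last 2 are the lowest changes, MRPL53 (chr2:74472651-74472840, minus strand) and MRPS30 (chr5:44808787-44808976, plus strand).
MRPL52: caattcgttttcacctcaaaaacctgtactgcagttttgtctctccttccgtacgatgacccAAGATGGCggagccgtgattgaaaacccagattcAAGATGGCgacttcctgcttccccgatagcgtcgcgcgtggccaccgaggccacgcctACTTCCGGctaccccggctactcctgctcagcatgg
MRPL54: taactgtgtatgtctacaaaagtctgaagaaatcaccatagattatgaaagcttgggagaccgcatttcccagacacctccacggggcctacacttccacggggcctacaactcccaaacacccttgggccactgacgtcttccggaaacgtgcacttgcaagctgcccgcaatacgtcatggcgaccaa
MRPS33: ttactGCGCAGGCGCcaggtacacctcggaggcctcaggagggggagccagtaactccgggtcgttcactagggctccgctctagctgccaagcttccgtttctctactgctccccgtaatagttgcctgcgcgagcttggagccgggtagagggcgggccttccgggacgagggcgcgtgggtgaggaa
MRPL53: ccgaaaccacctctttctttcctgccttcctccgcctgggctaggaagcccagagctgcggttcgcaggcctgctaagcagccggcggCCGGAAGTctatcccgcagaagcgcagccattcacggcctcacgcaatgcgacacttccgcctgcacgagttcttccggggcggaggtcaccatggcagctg
MRPS30: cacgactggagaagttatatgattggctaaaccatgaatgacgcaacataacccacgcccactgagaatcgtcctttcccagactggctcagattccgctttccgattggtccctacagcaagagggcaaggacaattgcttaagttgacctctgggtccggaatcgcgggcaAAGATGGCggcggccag

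MRPL52, with a log2 fold change of 1.20, holds 2 YY1 strings and 1 ETS string, and MRPL54, at 1.18, holds none. MRPS33, at 1.15, holds 1 NRF1 string, MRPL53, at -0.30, holds 1 ETS string, and MRPS30, at -0.27, holds 1 YY1 string after the start. Over the 69 windows, the YY1 letters were found in 20 (28.99%), against 3.032% of all 27305 RefSeq windows of the same length. The ETS letters were found in 11 (15.94%), against 4.435%, and the NRF1 letters in 8 (11.59%), against 6.285%. At least 1 of the 3 was found in 32 member windows (46.38%), against 12.55% of all windows. The windows set against the members were not limited to protein-coding or tested genes. Their median GC content was 58.3%, against 60.3% in the member windows. Within the set, 14 of 36 windows of genes called higher in printed cells held one, against 17 of 32 windows of tested genes that were not called. A match is a description of letters, not a bound site.

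The ribosomal RNAs of the same particle, added after their values were seen, stood higher still in printed cells. MT-RNR1, the small-subunit RNA, had 11307 and 11241 FPKM in M14A printed, 3460, 1635 and 1550 FPKM in M14A flask, and 1142, 1162 and 1106 FPKM in HepaRG flask. MT-RNR2, the large-subunit RNA, had 32013 and 34480 FPKM in M14A printed, 15839, 8455 and 8410 FPKM in M14A flask, and 5216, 5122 and 5514 FPKM in HepaRG flask. Neither RNA overlapped between any 2 groups. Their log2 fold changes in printed cells were 2.45 (SE 0.30, limma adjusted p = 0.0011) for MT-RNR1 and 1.67 (SE 0.25, limma adjusted p = 0.0020) for MT-RNR2, above the largest change of any protein member. Whether poly(A) selection or ribosomal RNA removal was used is not given in the sources used here, and the levels of these RNAs depend on it.

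Some proteins of the particle carry other names. Of the 5 listed, DAP3, CHCHD1, AURKAIP1 and GADD45GIP1 rose in printed cells, beside 17.7% of all genes. None fell, beside 15.5% of all genes, and none did at an unadjusted p below 0.05 or in voom either. PTCD3 did not pass (log2 fold change 0.35). AURKAIP1, a small-subunit protein, had 222 and 171 FPKM in M14A printed, 137, 94.2 and 79.2 FPKM in M14A flask, and 91.0, 83.4 and 98.7 FPKM in HepaRG flask. GADD45GIP1, a large-subunit protein also known as CRIF1, had 85.7 and 71.2 FPKM in M14A printed, 53.1, 38.3 and 29.2 FPKM in M14A flask, and 41.7, 37.6 and 46.2 FPKM in HepaRG flask. Printed libraries were above all others in both, at log2 fold changes of 0.95 (SE 0.23, limma adjusted p = 0.016) for AURKAIP1 and 0.98 (SE 0.24, limma adjusted p = 0.014) for GADD45GIP1. With equal FPKM totals 0 of the 5 were called, where 3.44% of all genes were higher and 46.1% lower. The calls did not all hold without printed library 1 or without printed library 2, fits that keep 1 printed library.

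Of 26 assembly and rRNA modification factors, RBFA, YBEY, MALSU1 and C1QBP rose and DDX28, MTERF4 and MTG1 fell, at a list median of 0.00, shares near the 17.7% higher and 15.5% lower of all genes. YBEY, an endoribonuclease, had 9.88 and 9.01 FPKM in M14A printed, 6.68, 4.82 and 4.22 FPKM in M14A flask, and 3.73, 4.31 and 4.57 FPKM in HepaRG flask. DDX28, an RNA helicase of large-subunit assembly, had 5.44 and 2.87 FPKM in M14A printed, 11.5, 8.31 and 7.45 FPKM in M14A flask, and 6.19, 6.58 and 6.34 FPKM in HepaRG flask. The printed libraries were thus above both flask groups for YBEY (log2 fold change 0.76, SE 0.18, limma adjusted p = 0.012) and below both for DDX28 (-0.99, SE 0.24, limma adjusted p = 0.013). The 7 calls of this list became 2 without either printed library, 3 or 4 without any other library but 1, and 13 without M14A flask library 1. Of 15 translation factors, TUFM, the elongation factor that brings aminoacyl-tRNA, rose and none fell, beside 17.7 and 15.5% of all genes. At an unadjusted p below 0.05 the list had 5 higher and 0 lower, and in voom 3 and 0. TUFM had 443 and 362 FPKM in M14A printed, 302, 198 and 180 FPKM in M14A flask, and 174, 171 and 178 FPKM in HepaRG flask, with a log2 fold change of 0.86 (SE 0.22, limma adjusted p = 0.018). Without M14A flask library 1 the list had 7 calls, without M14A flask library 3 it had 2, and without printed library 1 or M14A flask library 2 it had 0.

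Of 16 genes of mitochondrial transcription, RNA and DNA upkeep, SLIRP and SSBP1 rose and TWNK fell, shares below the 17.7 and 15.5% of all genes. SLIRP, which stabilizes mitochondrial mRNA together with LRPPRC, had 52.8 and 48.8 FPKM in M14A printed, 22.1, 24.0 and 21.8 FPKM in M14A flask, and 22.2, 20.3 and 22.8 FPKM in HepaRG flask. SSBP1, the single-stranded DNA binding protein of mitochondrial replication, had 26.8 and 28.4 FPKM in M14A printed, 13.0, 14.6 and 15.3 FPKM in M14A flask, and 12.2, 11.1 and 11.9 FPKM in HepaRG flask. In both the printed libraries stood alone, at 1.13 (SE 0.13, limma adjusted p = 8.8e-04) for SLIRP and 0.90 (SE 0.13, limma adjusted p = 0.0018) for SSBP1. Without M14A flask library 1 the list had 10 calls, and 2 to 4 without any other library.

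Of 8 tested regulators known for nuclear genes of mitochondrial proteins, PPRC1 and NRF1 fell, beside 15.5% of all genes, and none rose, at an unadjusted p below 0.05 or in voom either. PPRC1, a coactivator of the PGC-1 family, had 3.03 and 2.87 FPKM in M14A printed, 13.7, 10.01 and 9.39 FPKM in M14A flask, and 12.3, 12.8 and 12.7 FPKM in HepaRG flask. NRF1, a transcription factor of the respiratory chain genes, had 1.70 and 1.69 FPKM in M14A printed, 3.81, 2.57 and 2.40 FPKM in M14A flask, and 3.76, 3.55 and 3.04 FPKM in HepaRG flask. Both were below every flask library, at log2 fold changes of -1.59 (SE 0.16, limma adjusted p = 6.4e-04) for PPRC1 and -0.53 (SE 0.17, limma adjusted p = 0.043) for NRF1. YY1 and GABPA did not pass, at -0.02 and 0.13. The list had 1 call without any 1 library except M14A flask library 3 (2) and library 1 (3).

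Other marker sums moved between the same groups. Of 7 stellate cell and fibroblast markers 4 were detected. All 7 had a sum of 71.7 to 80.4 FPKM in M14A printed, 26.8 to 58.9 in M14A flask and 18.1 to 20.1 in HepaRG flask. DCN and LUM made up most of it, and COL1A2 stayed under 0.01 FPKM. The other detected markers ran differently from the sum, with means in M14A printed, M14A flask and HepaRG flask of 0.270, 0.785 and 1.91 FPKM for COL1A1 and 0.0983, 0.0698 and 1.80 FPKM for PDGFRB. Of 5 leukocyte markers 2 were detected. All 5 had a sum of 9.94 to 11.8 FPKM in M14A printed, 6.60 to 10.6 in M14A flask and 2.26 to 2.89 in HepaRG flask. PTPRC was at 0 in both printed libraries. The sum of the 6 biliary and progenitor markers, 5 of them detected, was 46.9 to 50.3 FPKM in M14A printed, 26.4 to 62.0 FPKM in M14A flask and 116 to 121 FPKM in HepaRG flask. Single markers ran in opposite directions. Means in the same order of groups were 5.74, 2.03 and 0.463 FPKM for KRT7 and 0.414, 0.509 and 18.8 FPKM for CD24. KRT19 stood at 49.0, 11.6 and 11.6 FPKM in M14A flask libraries 1, 2 and 3. Of 5 endothelial markers 1 was detected, KDR, with means of 1.10, 1.42 and 0.545 FPKM in M14A printed, M14A flask and HepaRG flask. All 5 had a sum of 1.64 to 2.01 FPKM in M14A printed, 1.79 to 2.26 in M14A flask and 1.04 to 1.24 in HepaRG flask. CDH5 was at 0 throughout. Their part in the changes of the ribosomal protein genes was not tested.

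The comparison of M14A flask with HepaRG flask sets the transfected line against its parent in the same kind of culture. Few members of the set passed the test. Of 77 tested genes 4 were higher in M14A flask, MRPL27, MRPL33, MRPS28 and MRPS33, beside 16.1% of all genes, and 2 were lower, MRPS14 and MRPL48, beside 14.7%. None reached 2-fold, where 6.62% of all genes were higher and 4.16% lower by that much. The median was 0.09 against -0.04 over all genes, but -0.10 with equal FPKM totals, -0.03 with those totals without mitochondrially encoded genes, -0.0046 with the length trend removed, and -0.06 with length and GC trends removed and M14A flask library 1 left out (-0.05 over all genes). On the deposited scale 50 changes were above 0 and 27 below. The groups did not overlap, with M14A higher, for 17 members (25.7% of all genes) and, with M14A lower, for 4 (27.4%). Both comparisons use the M14A flask libraries and are not independent.

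MRPL27, a large-subunit protein near the peptidyl transferase center, had 30.4, 19.98 and 19.0 FPKM in M14A flask and 14.9, 13.1 and 15.5 FPKM in HepaRG flask, a log2 fold change of 0.61 (SE 0.19, limma adjusted p = 0.039). MRPL33, at the values given above, was higher by 0.54 (SE 0.13, limma adjusted p = 0.014), and MRPS33 by 0.36 (SE 0.11, limma adjusted p = 0.037). In none of these 3 did the flask groups overlap. MRPS28, of the small subunit, had 7.27, 5.81 and 5.51 FPKM in M14A flask and 4.30, 4.05 and 3.86 FPKM in HepaRG flask, higher by 0.50 (SE 0.13, limma adjusted p = 0.017). MRPL27 and MRPS28 were the 2 genes called higher under each of the 4 scalings, of which the deposited and median-ratio ones are nearly equal.

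MRPS14, a small-subunit protein with a bacterial counterpart, had 3.43, 3.22 and 3.33 FPKM in M14A flask and 5.71, 5.27 and 5.41 FPKM in HepaRG flask, a log2 fold change of -0.58 (SE 0.14, limma adjusted p = 0.013). MRPL48, of the large subunit, had 3.78, 3.46 and 3.36 FPKM in M14A flask and 5.35, 4.76 and 4.61 FPKM in HepaRG flask, a log2 fold change of -0.38 (SE 0.11, limma adjusted p = 0.030). These 2 members were called in opposite directions in the 2 comparisons, which share the M14A flask libraries. In M14A printed MRPS14 stood at 6.97 and 4.73 FPKM and MRPL48 at 7.89 and 7.14 FPKM, above M14A flask by 0.64 (SE 0.15, limma adjusted p = 0.013) and 0.91 (SE 0.12, limma adjusted p = 0.0014). The call of MRPS14 in printed cells was lost without printed library 1 (0.41, limma adjusted p = 0.095), and with equal FPKM totals neither was called, at 0.02 for MRPS14 and 0.26 for MRPL48. No call of this comparison held in every fit that left out 1 library. Without any 1 HepaRG flask library 0 members were higher and 0 or 1 lower, beside 11.1 to 11.5% and 8.61 to 8.73% of all genes. Without M14A flask library 1 the counts were 8 and 8, at a median of -0.01, beside 20.3 and 22.7% of all genes. Without M14A flask library 2 they were 2 and 1, beside 13.9 and 12.7%.

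Of the 5 proteins under other names none was called, at an unadjusted p below 0.05 or in voom either, and AURKAIP1 stood at 0.15. Among 26 assembly factors C1QBP and MRM3 were higher and RBFA, MTG1, GTPBP10 and MALSU1 lower, where 16.1% of all genes were higher and 14.7% lower. The same shares stand behind the counts of the lists that follow. C1QBP, a matrix protein that binds RNA, had 211, 134 and 138 FPKM in M14A flask and 75.2, 71.1 and 76.1 FPKM in HepaRG flask, a log2 fold change of 1.08 (SE 0.18, limma adjusted p = 0.0025). MRM3, a methyltransferase of the large ribosomal RNA, had 10.6, 6.40 and 6.62 FPKM in M14A flask and 3.78, 3.03 and 3.54 FPKM in HepaRG flask, higher by 0.97 (SE 0.19, limma adjusted p = 0.0051). The 6 calls of this list became 2 to 5 without any 1 library other than M14A flask library 1, and 10 without that one.

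Among 15 translation factors PDF and TSFM were higher and GFM2 lower. PDF, the peptide deformylase, had 24.9, 18.5 and 16.6 FPKM in M14A flask and 11.1, 11.0 and 10.2 FPKM in HepaRG flask (0.82, SE 0.19, limma adjusted p = 0.013). GFM2, which splits the ribosome for recycling, had 6.26, 11.2 and 12.4 FPKM in M14A flask and 17.1, 17.7 and 15.7 FPKM in HepaRG flask (-0.75, SE 0.22, limma adjusted p = 0.030). Among 16 upkeep genes ELAC2, which trims tRNA ends, was higher by 0.86 (SE 0.18, limma adjusted p = 0.0080), while PNPT1, an RNA-degrading enzyme, was lower (log2 fold change -0.73, SE 0.23, limma adjusted p = 0.040), as was POLG2 (-0.61). Among 8 regulators PPARGC1A, the coactivator PGC-1α, and MYC were lower, and none was higher, at an unadjusted p below 0.05 or in voom either. PPARGC1A had 2.48, 4.68 and 4.69 FPKM in M14A flask and 7.51, 8.70 and 7.46 FPKM in HepaRG flask (-0.88, SE 0.21, limma adjusted p = 0.014). MYC had 16.0, 9.93 and 10.6 FPKM in M14A flask and 18.2, 19.3 and 18.1 FPKM in HepaRG flask (-0.59, SE 0.18, limma adjusted p = 0.033). With 1 library left out, the calls numbered 0 to 3 among translation factors, 1 to 4 among upkeep genes and 0 to 4 among regulators.

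Across the 3 groups the commonest order of means was M14A printed above M14A flask above HepaRG flask, in 48 of 78 members, followed by M14A printed above HepaRG flask above M14A flask in 21. The order of the flask groups varied and mostly lay within their spread. The spread itself differed: the median coefficient of variation of the members was 23.2% in M14A flask (4.91% without its library 1) and 4.55% in HepaRG flask. Between the 2 printed libraries, library 1 was the higher for 56 of 78 members, with a median log2 difference of 0.12.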

How the data were processed

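RNA-seq libraries of 8 samples were made with an NEB kit for Illumina, per the labels' protocols; HISAT2 2.0.5 and featureCounts 1.5.0-p3 are named in the submitters' processing notes. Options, strand setting and genome build were not stated there. The authors deposited FPKM values, reads per kilobase of gene after scaling for library size. All 58735 gene coordinates equal those of GENCODE 29 (GRCh38). FPKM times length gave whole multiples of its smallest nonzero value (within 0.01) for 99.92 to 99.98% of values, hence the reads per library. The deposited denominators were 0.979 to 1.03 times median-ratio factors of these reads.

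The 14349 genes reaching 1 FPKM in 2 or more libraries were analysed as log2(FPKM + 1), which understates changes of low genes, with limma 3.58.1 (trended eBayes) in R 4.3.3. A single model took the 3 group means of all 8 libraries, leaving 5 residual degrees of freedom. Tests were two-sided, with Benjamini-Hochberg adjustment across every tested gene and a threshold of 0.05. The steps were tested on simulated counts with the same dispersion in every library. The simulation held no outlying library and no shift in FPKM totals, so it does not cover these features of the data. Replicates differed beyond counting noise (chi-square per degree of freedom 2.69 to 69.3), so each counts once. Members, lists and rules were chosen with earlier results of these data known. Genes were named by rule: up to 8 largest called changes each way, the 3 highest and 3 lowest levels, untested members, MRPS18 paralogs, up to 2 called genes per related list (else its highest) and the largest change per subunit class. Alternatives were other pseudocounts, filters, scalings, models and thresholds, a replicate block, length trends removed and each library left out; those also removing GC trends were added after seeing the data.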

Additional observations from a re-analysis of the deposited data

How the results depend on the processing

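Counts below are of genes called at an adjusted p below 0.05 in limma unless the setting says otherwise, and the causes of these shifts were not tested. List counts join both directions, and shares over all genes move too. For M14A printed minus M14A flask these were 17.7% higher and 15.5% lower as reported. They were 3.44 and 46.1% with equal FPKM totals, and 5.76 and 37.4% without mitochondrial genes in them. At an adjusted p below 0.01 they were 8.82 and 7.69%, and 7.4 and 6.65% with only the 2 groups compared. With length and GC trend removed they were 24.4 and 20.5%, or 31.4 and 26.7% without M14A flask library 1. For M14A printed minus M14A flask, filter at 5 FPKM gave 5 for upkeep genes, 2 for translation factors, 4 for assembly factors and 1 for regulators. Equal FPKM totals gave 9 for upkeep genes, 6 for translation factors, 0 for proteins under other names, 20 for assembly factors, 6 for regulators, -0.16 for the member median, 8 for members called higher and 19 for members called lower. Equal FPKM totals without mitochondrial genes gave 8 for upkeep genes, 3 for translation factors, 0 for proteins under other names, 17 for assembly factors, 5 for regulators, 0.0073 for the member median, 14 for members called higher and 8 for members called lower. Voom on recovered reads gave 5 for upkeep genes and 3 for translation factors. Length and GC trend removed gave 9 for upkeep genes, 4 for translation factors, 0.33 for the member median and 3 for members called lower. Length and GC trend removed, M14A flask library 1 left out gave 11 for upkeep genes, 6 for translation factors, 12 for assembly factors, 4 for regulators and 4 for members called lower. Adjusted p below 0.01 gave 0 for translation factors, 0 for proteins under other names, 0 for assembly factors, 1 for regulators and 19 for members called higher. No filter on low values gave 0 for translation factors and 3 for assembly factors. Median-ratio scaling gave 3 for translation factors. Only the 2 groups compared gave 0 for translation factors, 0 for proteins under other names, 0 for assembly factors, 1 for regulators and 15 for members called higher. Length trend removed gave 2 for translation factors, 2 for assembly factors, 0.39 for the member median and 1 for members called lower. Replicate block gave 4 for assembly factors. Leaving out 1 library at a time gave 2 to 10 for upkeep genes, 0 to 7 for translation factors, 0 to 4 for proteins under other names, 2 to 13 for assembly factors, 1 to 3 for regulators, 0.50 to 0.66 for the member median, 17 to 65 for members called higher and 0 to 1 for members called lower. A replicate block gave 32 members higher and 0 lower, at a median of 0.53, beside 15.9 and 14.6% of all genes. Signs turned for some named genes of M14A printed minus M14A flask (log2 fold changes). MRPL46, at -0.03 on the deposited scale, took 0.11 with length trend removed, 0.15 with length and GC trend removed and 0.0828 with length and GC trend removed, M14A flask library 1 left out. MRPS18A, at 0.38 on the deposited scale, took -0.34 with equal FPKM totals and -0.17 with equal FPKM totals without mitochondrial genes. MRPS18B, at 0.32 on the deposited scale, took -0.43 with equal FPKM totals and -0.25 with equal FPKM totals without mitochondrial genes. MRPS18C, at 0.42 on the deposited scale, took -0.12 with equal FPKM totals. MRPS24, at 0.17 on the deposited scale, took -0.22 with equal FPKM totals, -0.14 with equal FPKM totals without mitochondrial genes, -0.0533 with length trend removed and -0.23 with length and GC trend removed, M14A flask library 1 left out, and -0.11 to 0.46 with 1 library left out. MRPS26, at 0.67 on the deposited scale, took -0.0822 with equal FPKM totals. For M14A flask minus HepaRG flask, adjusted p below 0.01 gave 1 for upkeep genes, 0 for translation factors, 2 for assembly factors, 0 for regulators, 0 for members called higher and 0 for members called lower. Over all genes 10.2% were then higher and 7.55% lower, against 16.1 and 14.7% as reported. Length and GC trend removed, M14A flask library 1 left out gave 5 for upkeep genes, 5 for translation factors, 2 for proteins under other names, 14 for assembly factors, 4 for regulators, 8 for members called higher and 18 for members called lower. In that fit 23.5% of all genes were higher and 27.6% lower. No filter on low values gave 1 for translation factors, 3 for assembly factors and 1 for regulators. Length and GC trend removed gave 6 for translation factors, 7 for members called higher and 7 for members called lower, beside 20.9 and 22.6% of all genes. Filter at 5 FPKM gave 3 for assembly factors. Equal FPKM totals gave 5 for regulators, -0.10 for the member median and 8 for members called lower. There 14.4% of all genes were higher and 23.5% lower. Median-ratio scaling gave 7 for members called higher, beside 16.9% of all genes. Voom on recovered reads gave 7 for members called higher, beside 17.1%. Length trend removed gave 2 for members called higher, beside 16%. Equal FPKM totals without mitochondrial genes gave 5 for members called lower, beside 19.4% of all genes. Leaving out 1 library at a time gave 1 to 4 for upkeep genes, 0 to 3 for translation factors, 0 in each fit for proteins under other names, 2 to 10 for assembly factors, 0 to 4 for regulators, -0.0076 to 0.15 for the member median, 0 to 8 for members called higher and 0 to 8 for members called lower. A replicate block gave 3 members higher and 2 lower, at a median of 0.09, beside 15.7 and 15.1% of all genes. Signs turned for some named genes of M14A flask minus HepaRG flask (log2 fold changes). AURKAIP1, at 0.15 on the deposited scale, took -0.0533 with equal FPKM totals, -0.0335 with length and GC trend removed and -0.10 with length and GC trend removed, M14A flask library 1 left out, and -0.0717 to 0.32 with 1 library left out. MRPL41, at 0.02 on the deposited scale, took -0.18 with equal FPKM totals, -0.11 with equal FPKM totals without mitochondrial genes, -0.13 with length trend removed, -0.19 with length and GC trend removed and -0.31 with length and GC trend removed, M14A flask library 1 left out, and -0.23 to 0.19 with 1 library left out. MRPL46, at 0.05 on the deposited scale, took -0.0526 with equal FPKM totals, -0.0127 with equal FPKM totals without mitochondrial genes and -0.003473 with length and GC trend removed. MRPS18A, at 0.30 on the deposited scale, took -0.0632 with length and GC trend removed, M14A flask library 1 left out. MRPS24, at 0.03 on the deposited scale, took -0.0647 with equal FPKM totals, -0.0267 with equal FPKM totals without mitochondrial genes, -0.0788 with length trend removed and -0.15 with length and GC trend removed, and -0.0392 to 0.12 with 1 library left out. MRPS26, at 0.04 on the deposited scale, took -0.16 with equal FPKM totals, -0.0876 with equal FPKM totals without mitochondrial genes, -0.10 with length trend removed, -0.14 with length and GC trend removed and -0.17 with length and GC trend removed, M14A flask library 1 left out, and -0.12 to 0.15 with 1 library left out. MRPS34, at -0.08 on the deposited scale, took -0.33 to 0.10 with 1 library left out. Deviations of same-numbered libraries correlated at -0.071, 0.081 and -0.155 between M14A flask and HepaRG flask. They correlated at 0.487 and 0.365 for the 2 numbers that M14A printed shares with M14A flask. Unlike numbers of those 2 groups gave 0.433, -0.365, -0.433 and -0.487. With 2 printed libraries the deviations mirror each other, so these values cannot decide whether the replicate numbers pair the samples. Depth limits MRPL38 most, which had 20 to 64 reads per library and was not tested.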
